A study of Mus musculus with 7 samples.

Results

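Gut mesenchyme transcription factors are DNA-binding proteins made by the non-epithelial wall of the developing digestive tract. The set described here holds 9 of them, listed by name: the homeobox genes Barx1, Isl1, Nkx3-2 and Six2, the forkhead genes Foxf1 and Foxl1, and the basic helix-loop-helix genes Tcf21, Hand1 and Hand2. Named probes measured 7 of the 9 among 17047 named genes on each of 7 arrays, and no probe carried the name Nkx3-2 or Foxl1. The 7 genes had 8 probes, since Hand2 had 2.

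Each array was 1 mouse sample. The day 42 culture was stomach tissue grown from embryonic stem (ES) cells for 42 days in DMEM/F12 medium with N2/B27, EGF (50 ng/mL), FGF10 (100 ng/mL), Wnt3a, Noggin and R-spondin1 (250 ng/mL). The day 46 culture had 42 days of that medium followed by 4 days with EGF (50 ng/mL), Shh (100 ng/mL) and Bmp4 (10 ng/mL). For those 4 days the sources used here list no FGF10 or R-spondin1. The ES cell line and the number of cultures pooled are not given in the sources used here. The other samples were freshly isolated adult stomach, esophagus, intestine and lung of ICR mice and the stomach primordium of ICR embryos at day 9.5 (E9.5); the sex, adult age and number of animals are not given in the sources used here. The 2 cultures thus differ in both age and factors. Effects of added Shh and Bmp4, of first-medium factors no longer listed and of 4 more days cannot be told apart.

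In the embryo the gut tube is an epithelium wrapped in splanchnic mesoderm, and signals pass both ways: hedgehog proteins from the epithelium act on the mesenchyme, which answers with BMPs and with Wnt antagonists that help to set the kind of epithelium that forms. Barx1 is the classic example. It marks the stomach mesenchyme and promotes a gastric fate in the overlying epithelium through the secreted Wnt antagonists Sfrp1 and Sfrp2. Isl1, Nkx3-2 and Six2 are also associated with the stomach wall, and Six2 with its pyloric end. Foxf1 and Foxl1 respond to hedgehog signals, Tcf21 is best known from lung, kidney and heart-lining mesenchyme, and Hand1 and Hand2 from heart, limb and gut.

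Promoter sequences were available for 6 of the 9 genes in a RefSeq table of build GRCm38.p6. The 250 bases upstream of the start site are shown for Barx1 and Isl1, which were more than 4-fold lower in both cultures than in both stomach samples, and for Hand2, whose culture levels lay near those of adult stomach. They run 5′ to 3′ on the gene's strand, and capitals mark 2 motifs searched on both strands, the E-box CANNTG, bound by basic helix-loop-helix proteins, and the GC box GGGCGG, written CCGCCC on the reverse strand; overlapping GC boxes were merged into 1 run of capitals.
Barx1, chr13:48662786-48663035, + strand: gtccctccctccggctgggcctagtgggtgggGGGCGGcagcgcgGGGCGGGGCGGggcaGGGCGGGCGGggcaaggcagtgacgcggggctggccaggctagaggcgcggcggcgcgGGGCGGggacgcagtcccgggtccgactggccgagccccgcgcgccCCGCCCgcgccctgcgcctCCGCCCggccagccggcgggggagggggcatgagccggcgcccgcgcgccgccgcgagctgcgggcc
Isl1, chr13:116309689-116309938, − strand: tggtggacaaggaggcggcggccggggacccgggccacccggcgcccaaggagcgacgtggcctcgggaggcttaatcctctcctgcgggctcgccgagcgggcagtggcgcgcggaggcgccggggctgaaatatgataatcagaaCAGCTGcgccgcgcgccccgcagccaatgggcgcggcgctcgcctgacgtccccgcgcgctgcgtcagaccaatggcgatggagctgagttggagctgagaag
Hand2, chr8:57320733-57320982, + strand: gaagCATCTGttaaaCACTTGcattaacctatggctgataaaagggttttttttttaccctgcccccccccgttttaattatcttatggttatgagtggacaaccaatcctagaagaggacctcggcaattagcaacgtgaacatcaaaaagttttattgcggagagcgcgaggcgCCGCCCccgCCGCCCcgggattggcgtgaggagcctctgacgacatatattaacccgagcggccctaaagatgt
The Barx1 stretch held 8 GC boxes and no E-box, with a GC content of 85.6%. The Isl1 stretch held 1 E-box and no GC box, at 71.2% GC. Hand2 held 2 of each motif at 49.2% GC. Among 32851 promoters of the same length the median GC content was 52.4%, 66.2% held an E-box and 32.7% a GC box, so each motif is common among promoters. These are letter matches and not tested binding sites.

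Levels below are log2 of the background-corrected intensity minus the array's 75th percentile, so 0 is the level of the probe at that percentile. A gene was well above background where the scanner software said so in at least 0.5 of its spots. Each group is a single array, so nothing here measures the spread between animals or cultures and no difference could be tested. The yardstick used instead is technical: the standard deviation (SD) of the log2 difference between different probes of the same gene, which ranged from 0.48 for esophagus against stomach to 0.93 for the day 42 culture against intestine. In these mixed tissues, fewer cells of a type and less RNA per cell cannot be told apart.

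Before the members, the samples were set against their labels. Stomach, intestine, lung and esophagus each had all of their own epithelial markers well above background (6 of 6, 6 of 6, 5 of 5 and 6 of 6), and the E9.5 stomach had 4 of 6 adult stomach genes, with Tff1 at -4.26. The cultures, labelled as stomach tissue, had 5 of 6 at day 42 and 6 of 6 at day 46, but each of the 6 was below its adult stomach level by 4-fold or more; Tff1, for example, was at 4.36 and 6.19 against 10.4. Genes from the lists of other organs or structures were also above background. Adult stomach had 6 of 6 genes of the esophageal epithelial list (Krt5 6.31, Krt4 4.56, Krt13 4.50), which need not be particular to esophagus. It had 4 of 5 lung epithelial markers (Scgb1a1 2.91). The source of these signals was not tested. The esophagus array had 5 of 5 lung epithelial markers above background (Sftpc 5.12, Scgb1a1 5.44), and the E9.5 array had 10 of 10 neural tube and somite markers, among them Meox1 at 2.84, Hes5 at 3.27 and Pax3 at 0.10. Of all named genes, 90.5% were well above background in the day 46 culture, 82.1% in the E9.5 stomach, 85.2% in adult stomach and 83.6% in esophagus. The share was 78.4% in the day 42 culture, 84.4% in intestine and 77.8% in lung. Of the 7 members, 7 were well above background in the day 46 culture and the E9.5 stomach, and 6 in adult stomach and esophagus. There were 5 in the day 42 culture and the intestine, and 3 in lung.

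**Figure D1:**
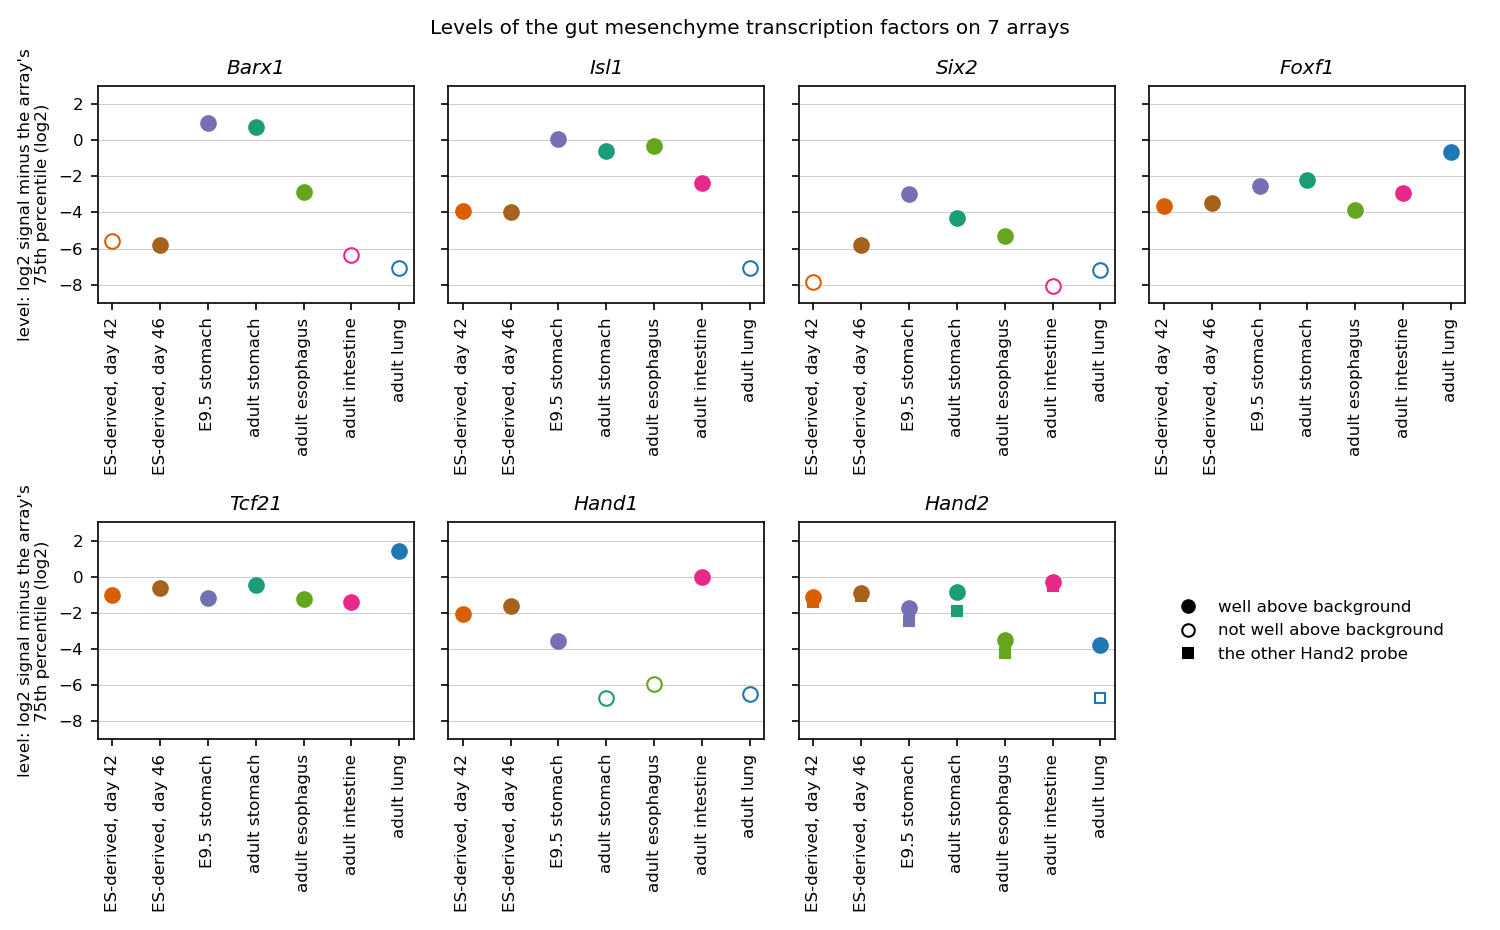
Level of each of the 7 measured genes (vertical axis, log2 signal minus the array's 75th percentile) on each of the 7 arrays (horizontal axis); filled symbols are well above background, open symbols are not, and squares are the other Hand2 probe. Barx1 is high in both stomach samples (0.98 and 0.76) and at or near background in the cultures, Hand1 is well above background in the cultures, E9.5 stomach and intestine, and Foxf1 and Tcf21 peak in lung.

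Barx1 separated the stomach samples from the rest. Its level was 0.98 in the E9.5 stomach, 0.76 in adult stomach and -2.87 in esophagus. In the day 46 culture it was -5.78, which was above that array's background. It was not well above background in the day 42 culture (-5.60), the intestine (-6.34) or the lung (-7.08). In intensity units with the scanner software's own error, this is 2322 ± 232 in the E9.5 stomach and 813 ± 81.4 in adult stomach. It is 31.4 ± 4.50 in the day 46 culture and 23.1 ± 5.91 in the day 42 culture. These intensities are not scaled between arrays, whose 75th percentiles (log2) were 10.20, 8.91, 10.75 and 10.13 in that order. The gap of 0.22 between the stomach samples lay within the probe SD of 0.63, whereas adult stomach exceeded esophagus by 3.62 against a probe SD of 0.48. The culture levels, the one detected and the other not, had no order.

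Isl1, a LIM-homeobox gene also used by motor neurons, endocrine cells and heart progenitors, had 10 spots per array (8 kept in lung) with an SD between spots of 0.04 to 0.26. Its level was 0.07 in the E9.5 stomach, -0.32 in esophagus and -0.60 in adult stomach, neighbours whose gaps were within the probe SD. Intestine followed at -2.37, then the day 42 culture at -3.92 and the day 46 culture at -3.99. Lung was not well above background at -7.09. The cultures thus lay below both stomach samples, the esophagus and the intestine, and differed from each other by 0.07. Cell types that use Isl1 outside mesenchyme were unevenly present. The summed level of 10 endocrine markers (log2 of their added signals) was 8.48 in adult stomach and 5.80 in intestine, 1.48 in the E9.5 stomach, and -1.47 to -0.24 on the other 4 arrays; all 10 were above background only in intestine, and 5 and 9 were in the day 42 and day 46 cultures. That of 8 enteric neuron and neural crest markers was 3.70 in the E9.5 stomach (8 of 8 above background) against -0.91 to 2.40 elsewhere (4 to 7 of 8). Their part in the Isl1 levels was not tested.

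Six2, a SIX-family homeobox gene also known from kidney progenitors, was dim everywhere. It was highest in the E9.5 stomach at -2.96, then -4.32 in adult stomach and -5.31 in esophagus. The day 46 culture stood at -5.82, also above background. It was not well above background in lung (-7.20), the day 42 culture (-7.85) or intestine (-8.06). The steps from E9.5 to adult stomach (1.37) and from there to esophagus (0.98) exceeded the probe SD, while esophagus and the day 46 culture did not differ beyond it. The alternative normexp background correction added an offset of 50 to each intensity before log2 was taken. With it the Six2 step from E9.5 to adult stomach was only 0.22. Like Barx1, Six2 was above background in the 3 foregut-derived stomach and esophagus samples and not in intestine.

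Foxf1, the hedgehog-responsive forkhead gene, was well above background on all 7 arrays. Lung was highest at -0.67, followed by adult stomach at -2.20, the E9.5 stomach at -2.54 and intestine at -2.95. The day 46 culture was at -3.50, the day 42 culture at -3.66 and esophagus at -3.88. Below lung, which exceeded stomach by 1.53, no neighbouring pair differed beyond its probe SD. Pairs further apart did: adult stomach exceeded esophagus by 1.68 against a probe SD of 0.48. It exceeded the day 42 culture by 1.46 against 0.87. Foxf1 is also made by lung endothelium, and the summed level of 8 endothelial markers was highest in lung (6.97, against 0.38 to 4.48 on the other 6 arrays); all 8 were above background on every array but that of the day 42 culture, where 6 were. Their part in the Foxf1 level was not tested.

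Tcf21 was likewise above background throughout, and its order had the same top. Its level was 1.40 in lung, -0.47 in adult stomach and -0.63 in the day 46 culture. It was -1.01 in the day 42 culture, -1.17 in the E9.5 stomach, -1.24 in esophagus and -1.42 in intestine. Only the step from lung to stomach (1.87) exceeded the probe SD among neighbours. Further apart, adult stomach exceeded intestine by 0.96 against a probe SD of 0.53. Each culture lay within the probe SD of every digestive organ, so the cultures were not separable from these organs by this gene.

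Hand1 was well above background in intestine alone among the adult organs. Its level there was -0.01, followed by the day 46 culture at -1.64, the day 42 culture at -2.04 and the E9.5 stomach at -3.55. Adult stomach (-6.69), lung (-6.48) and esophagus (-5.96) were not well above background. The cultures' own gap of 0.40 was within the probe SD of 0.51, and the gaps to intestine above them and to the E9.5 stomach below them were beyond it.

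Hand2, its relative, was above background on all 7 arrays with the brighter probe. That probe gave -0.29 in intestine, -0.82 in adult stomach, -0.90 in the day 46 culture, -1.14 in the day 42 culture and -1.71 in the E9.5 stomach, a run in which no neighbours differed beyond the probe SD. The ends of that run, intestine and the E9.5 stomach, differed by 1.42 against a probe SD of 0.69. Esophagus (-3.52) and lung (-3.76) lay apart, 1.80 below the E9.5 stomach for esophagus. The other probe gave the same 2 low organs (-4.20 in esophagus and -6.72, not above background, in lung). It placed both cultures (-1.38 and -1.05) above adult stomach (-1.88), whereas the brighter probe placed them below, so the direction of that small difference depends on the probe.

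Heart markers were present in the cultures beside the Hand genes. All 12 cardiac muscle markers were above background in both cultures, with summed levels of 8.34 at day 42 and 7.33 at day 46. The summed level was 6.16 in adult stomach, 5.80 in intestine and 4.45 in the E9.5 stomach, and it was 7.02 in lung and 9.12 in esophagus, with 11 of 12 or 12 of 12 above background on each of these arrays. Against adult stomach, 10 of 12 were at least 4-fold higher in each culture. By that measure 0 were lower at day 42 and 1, Tnni3, at day 46. Nppa, for example, was at 4.75 and 3.53 in the cultures and -3.34 in adult stomach. Tnni3 (3.89 and 2.93 against 5.20) and Actc1 (3.51 and 3.11 against 4.87) went the other way. In intestine, where Hand1 was highest, 11 of 12 were above background, from Actc1 at 5.26 and Tnnt2 at 3.67 to Myh6 at -4.85, with Myl2 not above it. Of 6 mesothelial markers, 3 were at least 4-fold higher and 1 lower at day 42 than in adult stomach, and 2 were higher and 2 lower at day 46. Their members ran both ways: Msln was at 6.77 and 6.51 in the cultures and 3.49 in intestine, and Upk3b was at -2.10 and -4.60 against 1.04. The part of these cell types in the Hand1 and Hand2 levels was not tested.

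The change of medium was compared first. Between day 42 and day 46, 0 of 7 members differed by at least 4-fold, where 1.80% of all genes compared did. The differences were small: 0.40 for Hand1, 0.38 for Tcf21, 0.25 for Hand2, 0.16 for Foxf1 and -0.07 for Isl1, all within the probe SD of 0.51. Median centring turned the sign for Tcf21, Hand2 and Foxf1, and quantile normalization and normexp turned it for Foxf1, so these genes have no settled direction between the cultures. Barx1 and Six2 were above background only at day 46. They allow no fold, since the dimmest signal above background was -5.57 at day 42 but -7.13 at day 46, so the day 42 array could not have shown them at their day 46 levels. Of the hedgehog response, the pathway that Shh acts on, Gli1 was higher at day 46 by 0.97, beyond the probe SD but less than 4-fold. Ptch1 differed by 0.35, within the probe SD of 0.51. Hhip, not above background at day 42, was higher by at least 0.65, which sets no upper limit.

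Against adult stomach, the cultures had far less Barx1 and Isl1 and more Hand1. Barx1 was at least 80.0-fold lower at day 42, a bound because it was not above background there, and 92.7-fold lower at day 46 (log2 difference -6.54). Isl1 was 9.98-fold lower at day 42 (-3.32), and its log2 difference at day 46 was -3.39. With the normexp background correction these differences were smaller and still past 4-fold, at -3.97 and -4.50 for Barx1 and -2.52 and -2.81 for Isl1. Hand1 was at least 19.3-fold and at least 25.5-fold higher, bounds because adult stomach was at background; with normexp the bounds shrank to 1.32 and 1.45 on the log2 scale and no longer passed 4-fold. These 3 of 7 members passed 4-fold in each culture, where 17.7% of all genes did at day 42 and 16.8% at day 46.

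The other members lay closer to adult stomach. Foxf1 was 2.76-fold lower at day 42 and 2.47-fold lower at day 46. Six2 was at least 2.37-fold lower and 2.82-fold lower. Tcf21 (-0.54 and -0.16) and Hand2 (-0.32 and -0.08) were within the probe SD of 0.87 and 0.85, and for Hand2 the sign turned with the mean of both probes and, at day 42, with median centring. The median difference over the 7 members was -1.24 at day 42 and -1.30 at day 46, against 0.00 over all genes. Beside these values, the smooth muscle of the stomach wall was also lower: 6 of 8 smooth muscle markers at day 42 and 7 of 8 at day 46 were below adult stomach by 4-fold or more, with Myh11 at 0.41 and 1.40 against 4.90. All 8 were above background in every sample, and their summed level was 6.65 and 6.70 in the cultures, 10.0 in adult stomach, 9.97 in intestine, 8.92 in esophagus, 7.05 in lung and 5.15 in the E9.5 stomach. Fibroblast markers went the other way, with 4 and 5 of 9 at least 4-fold higher in the cultures and summed levels of 9.83 and 9.62 against 8.09 in adult stomach (6.91 to 9.46 on the other arrays, all 9 detected on each). Their part in the members' differences was not tested.

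**Figure D2:**
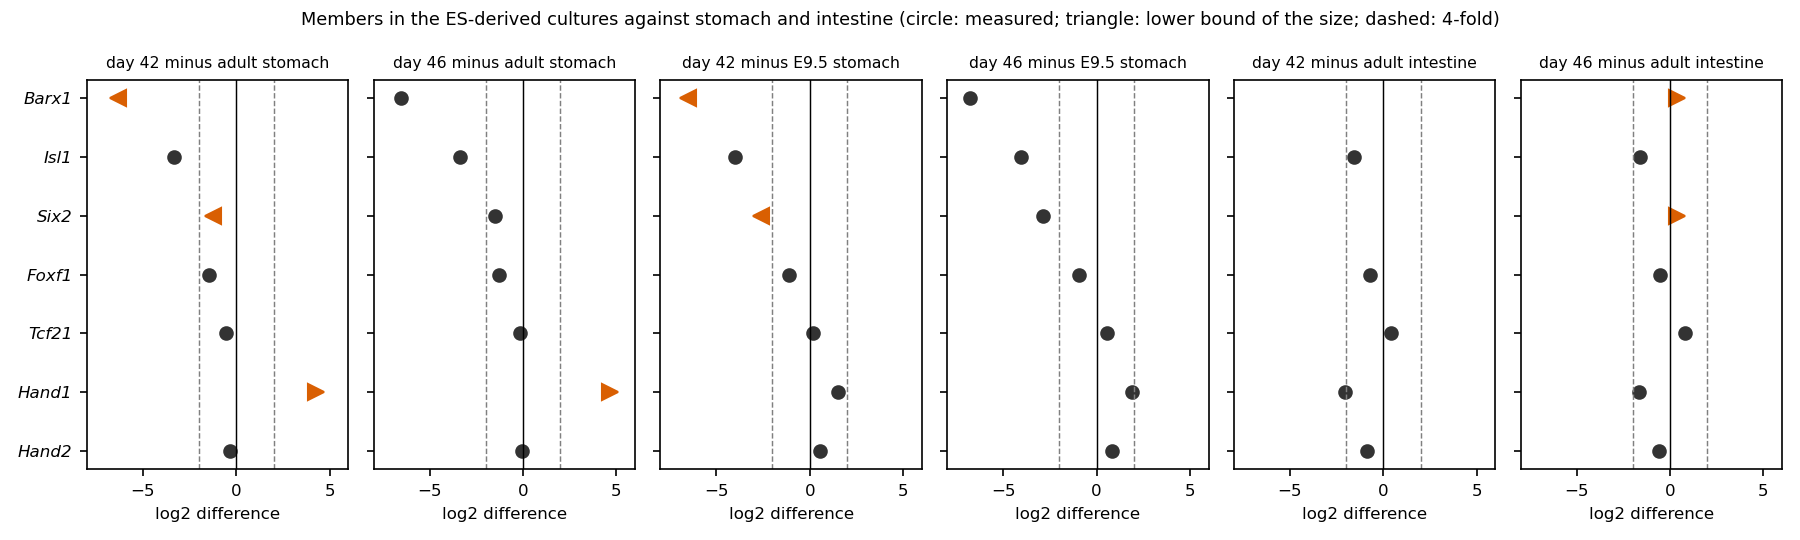
Log2 difference (horizontal axis) of each gene (vertical axis) between each ES-derived culture and adult stomach, E9.5 stomach and adult intestine; circles are measured on both arrays, triangles are lower bounds of the size pointing away from 0, and dashed lines mark 4-fold. Barx1 and Isl1 lie to the left of the 4-fold line against both stomach samples, Six2 against the E9.5 stomach, and no symbol lies to the right of it against intestine.

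The embryonic stomach gave the same 2 leading differences and added Six2. Barx1 was at least 93.5-fold lower at day 42 and 108-fold lower at day 46 than in the E9.5 stomach. Isl1 was 15.9-fold and 16.7-fold lower. With normexp the log2 differences were -4.34 and -4.87 for Barx1 and -3.09 and -3.37 for Isl1. Six2 was at least 6.11-fold lower at day 42 and 7.28-fold lower at day 46; with normexp these values were -1.54 and -1.84 on the log2 scale, short of 4-fold. Thus 3 of 7 members passed 4-fold at day 42, where 28.5% of all genes did, and 3 of 7 at day 46, where 27.7% did. No member was 4-fold higher in the cultures: Hand1 came nearest, at 2.84-fold and 3.74-fold. Both stomach comparisons share the culture arrays and so are not independent of each other.

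The 2 stomach samples, embryonic and adult, were then compared. Hand1 alone of the 7 passed 4-fold, at least 6.82-fold higher in the E9.5 stomach, where 29.6% of all genes did. That bound fell to 0.15 on the log2 scale with normexp. Six2 was 2.58-fold higher in the embryo and Isl1 1.60-fold, while Hand2 was 1.86-fold lower and Tcf21 1.63-fold lower. These 4 exceeded the probe SD of 0.63, while Barx1 (1.17-fold) and Foxf1 did not. Each of the 4 fell below 0.63 in size under an alternative. With normexp the log2 difference was 0.22 for Six2 and 0.57 for Isl1. With median centring it was -0.13 for Tcf21 and -0.32 for Hand2, while Barx1 rose to 0.79. The sign for Foxf1 turned with median centring and with quantile normalization. The neural tube and somite markers stood at a summed 4.81 in the E9.5 stomach against -0.26 in adult stomach (9 of 10 above background) and between -0.71 and 1.27 elsewhere (4 to 9 of 10). Their part in the Isl1, Six2 and Hand1 levels was not tested.

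Among the adult organs, stomach stood out by Barx1. It was at least 122-fold above intestine and at least 61.1-fold above lung, both at background, and 12.3-fold above esophagus. Hand1 was at least 79.2-fold lower in stomach than in intestine. These sizes were smaller with normexp, whose correction and added offset of 50 were not tried apart. Its log2 differences were 3.02, 3.80 and 2.80 for Barx1 in that order, and -2.90 for Hand1, against 6.93, 5.93, 3.62 and -6.31. These were the 2 of 7 members past 4-fold between stomach and intestine, where 15.0% of all genes passed. Hand2 was 6.48-fold higher in stomach than in esophagus, which with Barx1 made 2 of 6 members compared, where 11.6% of genes passed. Against lung, Barx1, Isl1 (at least 23.9-fold) and Hand2 (log2 difference 2.94) were higher in stomach, 3 of 6 members where 17.8% of genes passed, while Foxf1 was 2.89-fold lower. With normexp Isl1 exceeded lung by 3.01 and Hand2 by 2.19.

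The levels of the members in the cultures lay nearest to intestine among the 5 tissues. The mean absolute log2 difference over the 7 genes, with values at background raised to the array's lowest level above background, was 0.97 between the day 42 culture and intestine. It was 1.89 to lung, 1.90 to esophagus, 2.36 to the E9.5 stomach and 2.50 to adult stomach. For the day 46 culture it was 0.85 to intestine, 1.96 to lung, 2.15 to esophagus, 2.52 to adult stomach and 2.56 to the E9.5 stomach. The cultures were 0.25 from each other. Intestine stayed nearest without Barx1 (1.03 and 0.93) and without Hand1 (0.79 and 0.72). The margin was smaller with normexp and its added offset of 50. With normexp the day 42 culture was 1.00 from intestine and 1.14 from esophagus, the next nearest. The day 46 culture was then 1.16 from intestine and 1.38 from lung, the next nearest.

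Taken gene by gene against intestine, in comparisons chosen after the levels were seen, 1 of 5 members compared at day 42 and 0 of 7 at day 46 passed 4-fold, where 24.0% and 21.6% of all genes did. The 1 was Hand1, 4.09-fold lower in the day 42 culture, and it fell short of 4-fold after median centring, quantile normalization or normexp. Isl1 was 2.92-fold and 3.07-fold lower in the cultures than in intestine. Hand2 was 1.80-fold and 1.52-fold lower, and Foxf1 1.64-fold and 1.47-fold lower. Barx1 and Six2 were at background in intestine and in the day 42 culture. In the day 46 culture they exceeded the intestine's background by at least 1.32-fold and at least 1.28-fold. These bounds, 0.40 and 0.36 on the log2 scale, were smaller than the probe SD of 0.90.

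This order was not that of wider gene sets. Over 28 other mesenchyme transcription factors, the day 42 culture was 1.59 from intestine and 1.64 from adult stomach, and the day 46 culture was 1.76 from adult stomach and 1.81 from intestine. Over all genes above background on 1 array or more, adult stomach (1.20 for both cultures), lung (1.21 and 1.25) and esophagus (1.24 and 1.25) gave closely similar distances, and intestine was farther at 1.41 and 1.38. These differences between gene sets could not be tested, for want of replicate arrays. Of 6 intestinal epithelial genes, 5 at day 42 and 6 at day 46 were above background in the cultures. All 6 were at least 4-fold lower in each culture than in intestine. Cdx2 was at -4.38 and -3.99 against 3.84, Vil1 at 3.31 and 3.79 against 8.03, and Lgals4 at 5.58 and 6.06 against 8.82. Against adult stomach, 1 of 5 compared was at least 4-fold higher and 1 lower at day 42. At day 46, 2 of 6 were higher and 1 lower.

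**Figure D3:**
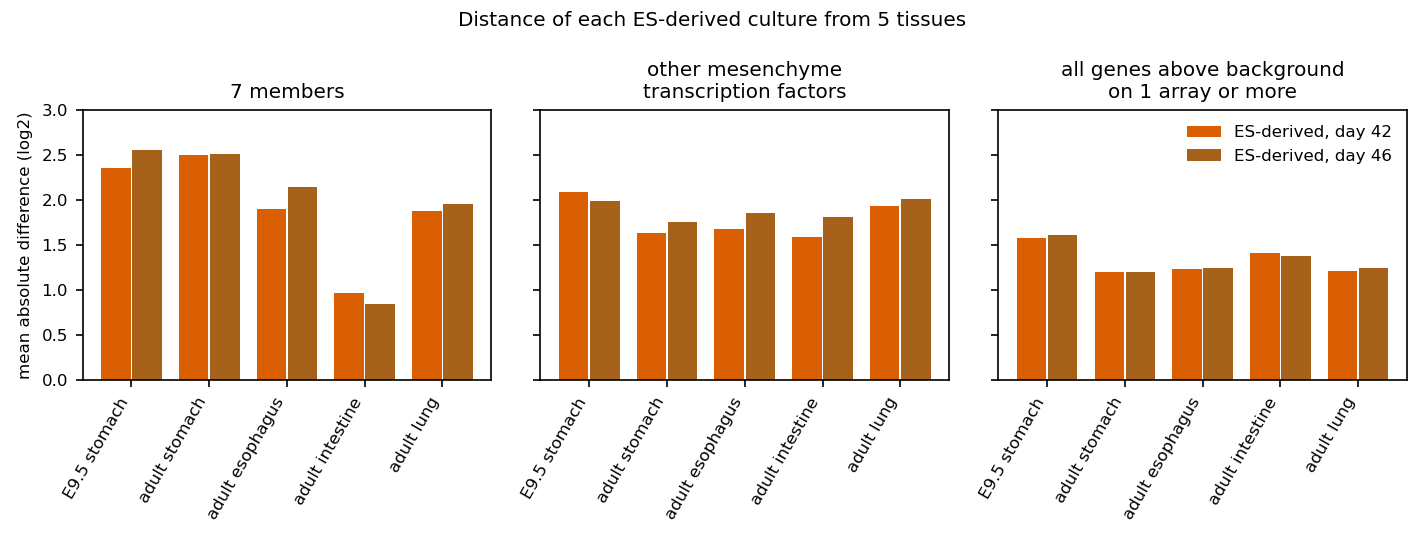
Mean absolute log2 difference (vertical axis, from 0) between each ES-derived culture and each of the 5 tissues (horizontal axis), over the 7 members, over other mesenchyme transcription factors, and over all genes above background on 1 array or more. For the members the bars for intestine are the shortest (0.97 and 0.85), while over all genes those for adult stomach, lung and esophagus are nearly equal (1.20 to 1.25) and shorter than those for intestine.

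The 28 other factors place the members in their surroundings. Against adult stomach, 6 of 25 compared were at least 4-fold higher and 3 lower at day 42. At day 46, 6 of 27 were higher and 2 lower. Of all genes, 17.7% at day 42 and 16.8% at day 46 passed 4-fold either way. The median difference of these factors was 1.01 at day 42 and 0.90 at day 46, opposite in sign to that of the members. Hoxa5, a positional gene of the lung and stomach mesoderm, was at -5.41 and -6.13 in the cultures, -1.78 in adult stomach, -1.07 in intestine and 0.37 in the E9.5 stomach. Nkx2-3, a factor of the intestinal mesenchyme, was at 0.21 in intestine but at -2.38 and -2.54 in the cultures, near adult stomach at -2.98. Osr2 was likewise high in intestine (-0.86) and esophagus (-1.46) and low in the cultures (-5.28 and -4.56). It was also low in the E9.5 stomach (-5.83) and not well above background in adult stomach (-7.45). Against intestine, 4 of 24 factors compared were at least 4-fold higher and 4 lower at day 42. At day 46, 6 of 27 were higher and 4 lower. Of all genes, 24.0% at day 42 and 21.6% at day 46 passed 4-fold either way. Hoxa5, Nkx2-3 and Osr2 were lower in both cultures.

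Factors of the heart and its lining ran both ways in the cultures. Nkx2-5, the cardiac homeobox gene, was at -0.13 and -0.42, against -4.48 in adult stomach and -5.06 in intestine. Wt1, a gene of mesothelium and epicardium, was at 1.61 and 1.30, against 0.30 in intestine and -3.21 in adult stomach. Tbx5, a heart and lung gene, was at -2.34 and -0.50 in the cultures, 1.85 in the E9.5 stomach and 1.35 in lung, and not well above background in adult stomach or intestine. Gata4, used in heart and stomach, was at -4.64 and -3.45 against 0.05 in adult stomach, and Tbx18, an epicardial gene, was above background only at day 46 (-4.99) of the cultures. In the E9.5 stomach 14 of 28 factors, including Twist1 and Tbx18, were at least 4-fold higher than in adult stomach and 1 lower. Against that embryo 0 were higher and 12 lower at day 42, and 2 were higher and 9 lower at day 46. Of all genes, 29.6% passed 4-fold either way between the E9.5 and adult stomach. Against the E9.5 stomach 28.5% did at day 42 and 27.7% at day 46.

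**Figure D4:**
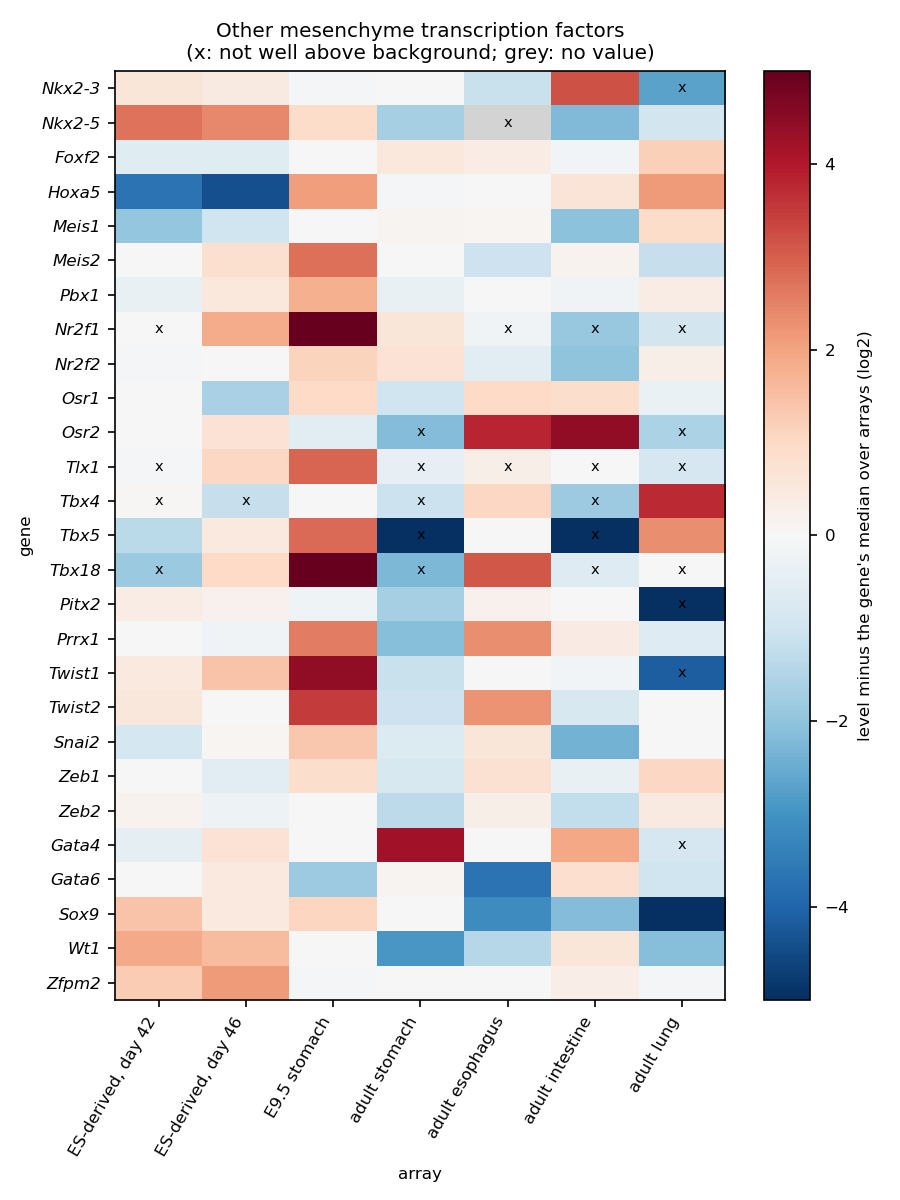
Level of 27 of the other mesenchyme transcription factors (rows) on each array (columns), as colour for the log2 difference from that gene's median over the arrays; an x marks a level not well above background and grey no value. Nkx2-5 and Wt1 are above their medians in both ES-derived cultures, Hoxa5 is below it there, and Nkx2-3 is above it most in intestine.

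The signals that connect these factors to the epithelium were counted over 17 genes. In the cultures 1 was at least 4-fold higher and 5 lower than in adult stomach at day 42. At day 46, 2 were higher and 5 lower. Of all genes, 17.7% at day 42 and 16.8% at day 46 passed 4-fold either way. Shh, the hedgehog ligand, was at -0.61 in adult stomach and -0.56 in the E9.5 stomach and not well above background in either culture. Its relative Ihh was at -0.88 and -2.60 in the cultures and -0.18 in adult stomach. The hedgehog targets Ptch1 (-4.70 and -4.35, against -2.45 in adult stomach) and Hhip (not above background and -4.92, against -2.81) were lower, whereas Gli1 was at -4.29 and -3.32 against -3.74. The day 46 culture had received Shh protein, which an RNA array does not measure.

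The pair of Wnt antagonists linked to Barx1 split. Sfrp2 was at -3.25 and -2.34 in the cultures, against 0.81 in adult stomach and 2.76 in the E9.5 stomach, and so was more than 4-fold lower than in either. Sfrp1 was at 3.89 and 3.55, against 2.98 and 3.72. Fgf10, a mesenchymal growth factor also supplied as protein in the first medium, was at -0.58 and -0.74 in the cultures and -3.42 in adult stomach. Bmp4 stood at -0.28 and -0.88 against 0.60.

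The genes whose level tracked each member most closely over the 7 arrays were found among 15872 candidates by the mean absolute log2 difference after each gene's own mean was subtracted, with values at background raised as for the distances. For Barx1 they were Gldc (0.60), Wnt16 (0.98) and Lrrc4 (1.07). For Isl1 they were Vat1l (0.46), Zfp536 (0.54) and Catsperz (0.59), and for Hand1 Rundc3b (0.61), Mab21l2 (0.65) and Slc30a10 (0.75). Hand2 was nearest to Galnt7 (0.30) and Dera (0.32), Foxf1 to Plxnc1 (0.23), Sort1 (0.23) and Caskin2 (0.35), Tcf21 to Ankrd44 (0.20), Rd3 (0.23) and Kcnk2 (0.25), and Six2 to Clvs1, Hspe1 and Fgfbp3 (0.23 each). No other member was among the nearest genes of any member. These are descriptions over 7 arrays.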

How the data were processed

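RNA of 7 samples was hybridised to 7 one-colour Agilent arrays, 1 per group. Per the file headers, the deposited scanner files hold background-corrected intensity per spot with flags, from Feature Extraction 10.7.3.1 for the cultures and 10.5.1.1 for the rest; the submitters' processing notes name 10.5. The 4 adult organs shared 1 slide and the other 3 arrays lay on a slide each, so slide, software version and group cannot be told apart. The authors also deposited log2 values scaled to the 75th percentile, used as an alternative (correlation at least 0.999). No spot was saturated; 40 to 728 outlier spots per array were left out. RefSeq names were found for 24375 of 41174 probes through their accession and for 57 through their symbol or a synonym. The probe of highest mean stood for its gene.

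Where 1 array of a pair had a gene at background, its level there was set to that array's lowest level above background or, if higher, left as measured, so that the fold is a lower bound; a gene at background on both was left out, and where the bound left no difference, 0 was used. Calls were 4-fold. The named genes were the members, up to 4 genes of a list per comparison with the largest difference, the first 4 markers of an organ, and the 3 genes nearest to each member; list genes outside this rule were chosen after their values were seen, and some named by it are not reported here. The members and lists were chosen with earlier results of these data known. The number of arrays limits the precision. The counting of calls was checked on simulated data with known differences. Tools were Python 3.11.15, numpy 2.4.6, pandas 2.3.3 and limma 3.58.1; 8 alternatives were run.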

Additional observations from a re-analysis of the deposited data

How the results depend on the processing

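Counts of members past 4-fold were recomputed under 8 alternatives in 11 comparisons, of which 2, against intestine, were added after the levels were seen. Of 88 recomputed counts 69 stayed within 1.5 times, and of 494 recomputed differences 10 changed sign, each for Foxf1, Tcf21 or Hand2 and each from a value within the probe SD. With only genes above background on both arrays, fewer members could be compared. The share of all genes past the threshold is given in brackets here. The count was 1 of 4 for day 42 against adult stomach (15.46%) and 1 of 5 for day 42 against E9.5 stomach (26.52%). It was 0 of 6 for E9.5 against adult stomach (26.62%), 0 of 4 for stomach against intestine (13.16%) and 1 of 3 for stomach against lung (15.69%). With 2-fold in place of 4-fold it was 5 of 7 for each culture against adult stomach (42.81% at day 42, 41.53% at day 46). It was 5 of 7 for day 42 against E9.5 stomach (54.01%) and 2 of 7 for E9.5 against adult stomach (57.05%). For stomach it was 4 of 7 against intestine (37.09%) and 5 of 6 against lung (39.86%). Against intestine it was 2 of 5 at day 42 (52.43%) and 2 of 7 at day 46 (48.05%). Without the background filter it was 1 of 7 for day 46 against day 42 (Six2, 3.87%) and 1 of 7 for day 46 against intestine (22.09%). With normexp it was 0 of 7 for E9.5 against adult stomach (20.54%). For day 42 against intestine it was 0 of 5 with median centring (25.90%), quantile normalization (22.83%) and normexp (16.53%). The cause was not tested. Barx1 and Isl1 passed 4-fold against both stomach samples under every alternative that gave a value: Barx1 between -7.26 and -3.97, Isl1 between -4.57 and -2.52. Median centring moved the median difference of all genes by -0.39 for day 46 against day 42, 0.43 for day 42 and 0.57 for E9.5 against adult stomach, -0.42 for day 46 and -0.10 for day 42 against E9.5 stomach, 0.35 for day 42 against intestine, 0.18 for stomach against lung and -0.12 for stomach against intestine. No paired analysis was possible because each group holds 1 array. Members at background, Barx1 and Six2 at day 42 and Hand1 in adult stomach, have only bounds.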
